A study of Homo sapiens with 12 samples.

Results

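Transcripts of 36 cell cycle genes were described in HepaRG cells, a human hepatoma line, across 2 genotypes and 3 treatments. The members were the rows of the deposited expression table whose gene symbol matched a list of 36 names, and all 36 were among its 15822 loci. By textbook function 11 act in DNA replication or in entry into S phase and 25 in mitosis. The 12 libraries fall into 6 groups of 2: wild type cells (WT) and cells labelled hCAR-KO (KO), in which CAR, the human constitutive androstane receptor, was disrupted, each given DMSO (the solvent), PB (phenobarbital) or CITCO (a synthetic CAR agonist). The labels give no dose, exposure time, clone number or way of disrupting the gene, and do not say that the 2 libraries of a group came from separate cultures. The p-values therefore measure only the spread between libraries, which may be technical. Anything else that sets the WT and KO stocks apart cannot be told apart from the knockout.

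Cells copy their DNA in S phase and divide it in mitosis, and the genes for each step are transcribed in 2 waves. E2F factors switch on the first, with the MCM helicase, the clamp PCNA and the enzymes that make deoxynucleotides. The second wave, in G2 and mitosis, runs through CCAAT boxes and the cell cycle genes homology region (CHR), a short promoter element bound by the MuvB complex with B-MYB and FOXM1, and gives cyclin B1, CDK1, Aurora and Polo kinases, spindle motors and kinetochore proteins. Mature hepatocytes rarely divide, and in rodents CAR activators such as phenobarbital are known to drive their division. CYP2B6, a cytochrome P450 gene, is the usual marker of CAR activity.

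The promoters of 8 members are printed because the results below separate replication from mitosis genes, and their promoters carry different motifs. Each sequence runs 5′ to 3′ on the gene's strand from 150 bases before to 30 after the transcription start (RefSeq, GRCh38.p14). Capitals mark matches on either strand to the CCAAT box (CCAAT), the CHR (TTTGAA or TTCGAA) or the E2F site (TTTCGCGC, TTTGGCGC, TTTCCCGC or TTTGCCGC). From the mitosis list come MKI67 at chr10:128126394-128126573, minus strand, PRC1 at chr15:90994506-90994685, minus strand, KIF11 at chr10:92592980-92593159, plus strand, and DLGAP5 at chr14:55191556-55191735, minus strand.
MKI67: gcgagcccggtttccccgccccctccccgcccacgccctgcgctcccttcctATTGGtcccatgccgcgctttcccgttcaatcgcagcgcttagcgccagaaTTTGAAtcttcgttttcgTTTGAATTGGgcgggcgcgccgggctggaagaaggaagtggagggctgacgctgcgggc
PRC1: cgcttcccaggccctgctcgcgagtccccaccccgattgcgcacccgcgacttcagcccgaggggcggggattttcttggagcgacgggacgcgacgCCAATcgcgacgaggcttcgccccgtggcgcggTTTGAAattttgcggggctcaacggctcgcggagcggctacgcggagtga
KIF11: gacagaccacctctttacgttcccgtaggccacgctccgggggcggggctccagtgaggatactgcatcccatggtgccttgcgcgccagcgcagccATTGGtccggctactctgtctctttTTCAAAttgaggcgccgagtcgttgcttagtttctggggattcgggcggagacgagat
DLGAP5: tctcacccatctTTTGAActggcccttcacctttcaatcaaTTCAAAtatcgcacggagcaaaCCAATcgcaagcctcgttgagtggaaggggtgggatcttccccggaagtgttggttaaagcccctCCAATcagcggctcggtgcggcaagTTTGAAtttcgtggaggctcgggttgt
From the replication list come E2F1 at chr20:33686356-33686535, minus strand, MCM6 at chr2:135876414-135876593, minus strand, PCNA at chr20:5126593-5126772, minus strand, and UHRF1 at chr19:4909351-4909530, plus strand.
E2F1: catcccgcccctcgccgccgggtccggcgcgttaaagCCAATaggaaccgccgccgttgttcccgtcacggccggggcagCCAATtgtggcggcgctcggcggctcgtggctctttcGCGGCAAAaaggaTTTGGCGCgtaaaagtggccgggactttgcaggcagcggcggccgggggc
MCM6: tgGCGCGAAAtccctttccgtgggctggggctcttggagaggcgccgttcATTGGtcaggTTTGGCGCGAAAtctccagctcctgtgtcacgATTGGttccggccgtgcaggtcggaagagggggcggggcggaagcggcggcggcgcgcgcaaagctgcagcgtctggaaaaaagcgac
PCNA: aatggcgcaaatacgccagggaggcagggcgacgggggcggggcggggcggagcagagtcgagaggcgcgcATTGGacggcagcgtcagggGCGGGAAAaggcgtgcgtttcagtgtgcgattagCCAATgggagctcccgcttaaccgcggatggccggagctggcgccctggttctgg
UHRF1: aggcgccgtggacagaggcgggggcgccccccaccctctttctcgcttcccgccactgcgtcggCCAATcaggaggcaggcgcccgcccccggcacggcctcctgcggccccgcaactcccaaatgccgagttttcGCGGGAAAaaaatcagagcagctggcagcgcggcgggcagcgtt

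Over the whole window of 250 bases before to 50 after the start, the CHR letters were found in 13 of the 20 mitosis members with a RefSeq promoter (65.0%) and in 1 of 8 replication members (12.5%), against 16.6% of 27305 promoters. The E2F letters were found in 7 of the 8 replication members (87.5%) and 2 of 20 mitosis members (10%), against 3.33% of all promoters. A CCAAT box was present in 6 of 8 and 16 of 20, against 35.7%. Overlapping matches were each counted, as in MKI67, where a CHR and a CCAAT box share a base, and in MCM6, where a pair of E2F matches overlap. MCM4, MCM5, CCNE2, FOXM1, AURKA, TPX2, BIRC5 and TTK had no entry in the promoter table. A match describes letters in a window and is not a measured binding site.

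Levels are the deposited values, called CPM here: reads scaled to a common library size that carries the authors' normalization factor. The table held 49258123 to 66453415 reads per library, and the members had from 107 reads (CDC25C in WT DMSO 1) to 13025 (TOP2A in KO PB 2). CPM are not divided by transcript length, so single genes are compared only with themselves. Sums of CPM over a list, and ratios of such sums, give more weight to long or abundant transcripts. Differences are on the log2(CPM + 0.5) scale from limma, all 12 libraries in 1 fit, with Benjamini-Hochberg adjustment over 15792 loci, and a gene passed, or rose or fell, at an adjusted p under 0.05. NR1I3, which encodes CAR, was at 11.5 and 11.97 CPM in WT DMSO and 11.01 and 10.6 in KO DMSO (log2 -0.12, adjusted p = 0.273), and as the position of the edit is not given, this level checks nothing about the genotype. CYP2B6 was 35.2 and 37.1 CPM in WT DMSO and 435 and 424 in WT CITCO. In KO cells CYP2B6 was 10.2 and 8.95 under DMSO and 17.4 and 16.1 under CITCO. Its levels under PB are not given here, so these values do not check the action of PB. Albumin and 8 other hepatocyte markers were detected in every group, but their summed level in KO libraries was 37.5 to 39.4% of the WT DMSO mean. The 2 genotypes also differ in the total of the deposited values. If each library is instead scaled to its own total, the median genotype difference over all loci moves up by log2 0.25 under DMSO and by 0.24 under either drug. All genotype differences given here are thus relative to the authors' normalization.

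Mitosis genes were about 2-fold higher in KO than in WT cells, and the median difference of replication genes was much smaller. Under DMSO all 25 mitosis members rose (median log2 1.07, range 0.29 to 1.55). Of the 11 replication members 8 rose, 1 fell and 2 did not pass (median 0.21, range -0.41 to 0.86). Over all loci 57.7% passed, 28.3% higher and 29.4% lower, with a median of -0.0032. Both KO DMSO libraries were above both WT DMSO libraries for 33 of 36 members and below for 1, against 5895 and 6144 of 15792 loci. The share of loci with all 6 KO libraries above all 6 WT libraries was not computed. Statements of that kind below describe only the genes named, most of them chosen for large differences. Under total scaling 25 mitosis and 10 replication members were higher and 0 lower, with 52.5% of all loci higher and 14.6% lower. The summed CPM of the mitosis members was 433 and 419 in WT DMSO and 934 and 926 in KO DMSO, while that of the replication members was 393 and 389.6 against 432 and 431. The ratio of the mitosis to the replication sum was 1.02 to 1.16 in the 6 WT libraries and 2.15 to 2.48 in the 6 KO libraries, without overlap. In bulk RNA, a larger share of cells in a phase and more RNA per cell cannot be told apart.

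Other contents of the libraries moved with genotype. Mesenchymal markers had a summed level of 211 to 233% of the WT DMSO mean in KO libraries (95.6 to 101.4% in WT), with 4 of 6 higher and 1 lower under DMSO, and biliary markers 43.7 to 48.0% (90.0 to 102% in WT), with 2 of 6 higher and 4 lower. Hepatocyte markers were lower in 7 of 9 and higher in 1 of 9. Over all loci 28.3% were higher and 29.4% lower under DMSO. With total scaling 5 mesenchymal markers were higher and 0 lower, and 2 hepatocyte markers were higher and 6 lower. These stand beside 52.5% of all loci higher and 14.6% lower with total scaling. The biliary keratin KRT7 was low, at 0.803 and 1.09 CPM in WT DMSO and 2.27 and 1.56 in KO DMSO. With total scaling KRT7 and SPP1 were the biliary markers higher in KO DMSO, while KRT19, SOX9, CD24 and ANXA4 were lower. Whether these marker differences reflect cell make-up was not tested, nor was their part in the cell cycle differences.

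**Figure D1:**
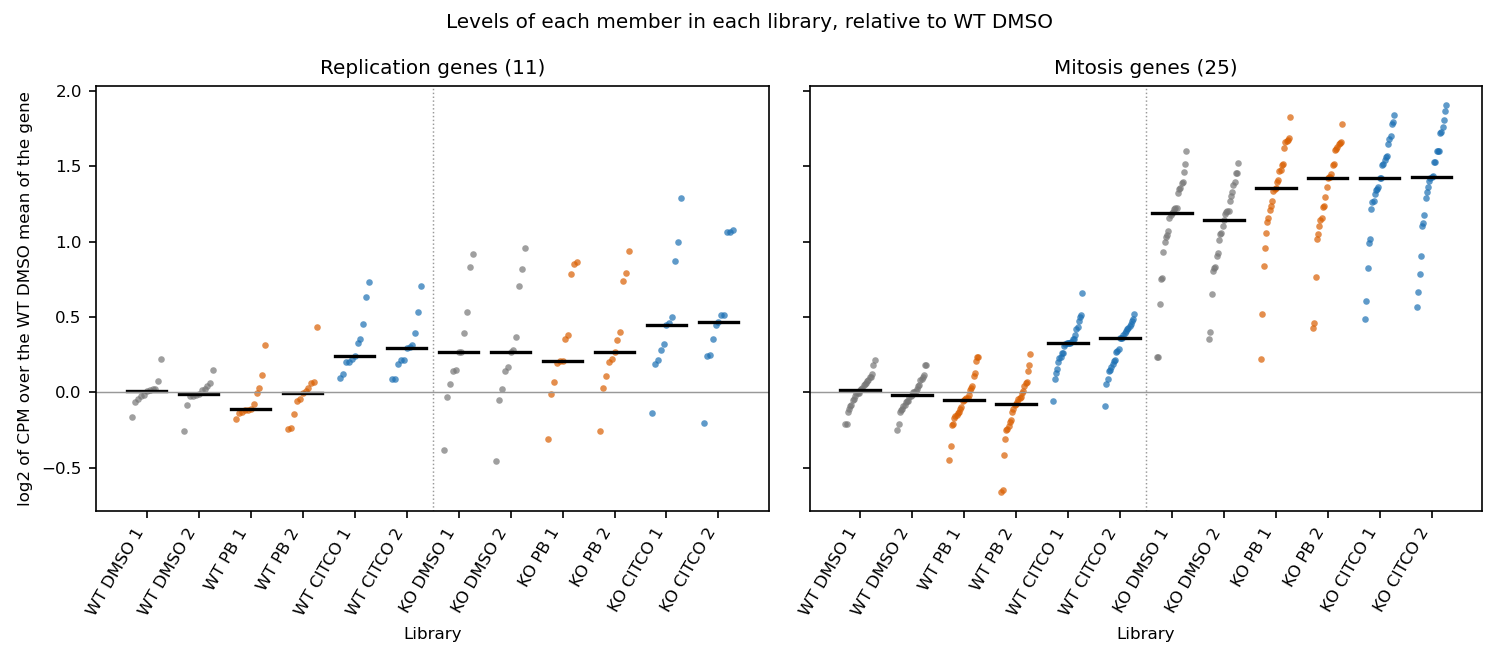
Level of each member in each of the 12 libraries, as log2 of its CPM over its WT DMSO mean (y axis), with replication genes left and mitosis genes right; each point is a gene, black bars are medians, and the dotted line separates WT from KO libraries. In the right panel every point of the 6 KO libraries lies above 0. WT points lie on both sides of 0 under DMSO and PB, with DLGAP5 below it in both WT PB libraries. Under CITCO they lie mostly above 0.

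Among genes that start S phase, E2F1, the activator of replication genes, had 4.13 and 5.12 CPM in WT DMSO, 5.75 and 6.23 in WT PB, 7.17 and 7.54 in WT CITCO, 8.21 and 8.16 in KO DMSO, 8.43 and 8.02 in KO PB and 9.22 and 9.77 in KO CITCO. CCNE2, the cyclin E2 that activates CDK2, had 6.71 and 4.82 CPM in WT DMSO, 6.25 and 6.04 in WT PB, 7.89 and 7.11 in WT CITCO, 8.36 and 9.43 in KO DMSO, 9.95 and 11.1 in KO PB and 10.6 and 12.1 in KO CITCO. For both, every KO library was above every WT library, and the lowest library was a WT DMSO one. Under DMSO the KO minus WT difference of E2F1 was log2 0.77 (SE 0.11, adjusted p = 1.06e-05) and that of CCNE2 was 0.60 (SE 0.13, adjusted p = 7.23e-04).

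MCM2 to MCM6 are subunits of the helicase that unwinds DNA ahead of the fork, and with the deposited scaling 3 of the 5 rose and 1 fell in KO DMSO. MCM5 was the member that fell in KO cells, with 31.7 and 30.6 CPM in WT DMSO, 28.8 and 31.8 in WT PB, 39.9 and 40.9 in WT CITCO, 23.9 and 22.7 in KO DMSO, 25.1 and 26.03 in KO PB and 28.3 and 27.0 in KO CITCO. MCM2 had 24.2 and 26.4 CPM in WT DMSO, 23.2 and 25.3 in WT PB, 31.9 and 31.5 in WT CITCO, 33.3 and 32.6 in KO DMSO, 32.9 and 33.4 in KO PB and 34.5 and 36.1 in KO CITCO. MCM5 was lower in each KO group than in the WT group of the same treatment, while MCM2 was higher in all 6 KO libraries than in all 6 WT libraries. Under DMSO MCM5 differed by log2 -0.41 (SE 0.067, adjusted p = 4.25e-05), but with total scaling by log2 -0.15, adjusted p = 0.0578, no longer passing, and under PB it went from -0.24 (adjusted p = 0.00512) to log2 0.01, adjusted p = 0.919, in the other direction, and was lost without WT PB 2 (adjusted p = 0.0754). MCM2 (0.37), MCM6 (0.27) and MCM4 (0.20, lost without KO DMSO 1 at adjusted p = 0.121) rose, and MCM3 did not pass (0.0030, 95% interval -0.11 to 0.12, adjusted p = 0.967).

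PCNA, the clamp that holds DNA polymerase on its template, had 66.2 and 65.5 CPM in WT DMSO, 67.2 and 69.1 in WT PB, 71.7 and 76.5 in WT CITCO, 73.1 and 74.2 in KO DMSO, 76.2 and 75.7 in KO PB and 79.9 and 84.1 in KO CITCO. The KO minus WT difference under DMSO was small but passed (log2 0.16, SE 0.049, adjusted p = 0.0101), and was lost without KO DMSO 2 (adjusted p = 0.0556). RRM2, the subunit of ribonucleotide reductase that limits dNTP supply, had 47.5 and 42.5 CPM in WT DMSO, 39.9 and 38.2 in WT PB, 53.3 and 55.2 in WT CITCO, 49.7 and 54.8 in KO DMSO, 57.5 and 57.1 in KO PB and 63.7 and 62.3 in KO CITCO. It rose in KO DMSO by log2 0.21 (adjusted p = 0.00692), a call lost without WT DMSO 2 (0.108) and without KO DMSO 2 (0.112). TYMS, which makes thymidylate, had 69.6 and 73.7 CPM in WT DMSO, 66.1 and 69.5 in WT PB, 83.5 and 81.6 in WT CITCO, 70.3 and 72.9 in KO DMSO, 71.2 and 77.4 in KO PB and 83.2 and 85.2 in KO CITCO. Its DMSO groups overlapped and the difference was -0.0016 on the log2 scale (95% interval -0.11 to 0.11, adjusted p = 0.983), or log2 0.26, adjusted p = 3.87e-04 with total scaling. UHRF1, which keeps DNA methylation through replication, had 4.26 and 4.36 CPM in WT DMSO, 4.09 and 3.64 in WT PB, 7.17 and 6.25 in WT CITCO, 8.15 and 8.36 in KO DMSO, 7.78 and 7.20 in KO PB and 10.5 and 9.01 in KO CITCO, and of the replication members it had the largest difference under DMSO (log2 0.86, SE 0.12, adjusted p = 4.22e-06).

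Regulators of mitotic entry were all higher in KO cells. CDK1, the kinase that starts mitosis, had 14.1 and 12.7 CPM in WT DMSO, 13.2 and 13.3 in WT PB, 17.1 and 17.9 in WT CITCO, 31.3 and 33.7 in KO DMSO, 41.2 and 42.0 in KO PB and 43.0 and 45.3 in KO CITCO. CCNB1, its partner cyclin B1, had 14.2 and 16.1 CPM in WT DMSO, 16.4 and 15.8 in WT PB, 21.6 and 21.8 in WT CITCO, 40.0 and 35.0 in KO DMSO, 40.0 and 39.1 in KO PB and 45.0 and 45.9 in KO CITCO. MELK, a mitotic kinase, had 6.49 and 6.23 CPM in WT DMSO, 5.497 and 6.198 in WT PB, 7.95 and 8.91 in WT CITCO, 18.2 and 17.4 in KO DMSO, 20.2 and 20.02 in KO PB and 21.9 and 22.2 in KO CITCO. All 6 KO libraries were above all 6 WT libraries for each of the 3. Under DMSO CDK1 differed 2.42-fold (log2 1.25, SE 0.072, adjusted p = 5.47e-11), CCNB1 2.47-fold (log2 1.28, SE 0.075, adjusted p = 7.82e-11) and MELK 2.80-fold (log2 1.42, SE 0.091, adjusted p = 2.42e-10). The phosphatase CDC25C (1.14), the factor FOXM1 (1.07), the Polo kinase PLK1 (1.02) and cyclin A2 (CCNA2, 0.77), which acts in S phase and G2, rose too.

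The Aurora kinases and their partners rose as well. TPX2, which activates Aurora A on the spindle, had 23.1 and 20.53 CPM in WT DMSO, 21.3 and 20.9 in WT PB, 27.4 and 29.6 in WT CITCO, 55.7 and 52.7 in KO DMSO, 62.0 and 62.5 in KO PB and 63.5 and 66.3 in KO CITCO. AURKB, the kinase of the chromosomal passenger complex, had 3.64 and 3.88 CPM in WT DMSO, 3.52 and 4.48 in WT PB, 5.92 and 4.15 in WT CITCO, 9.82 and 8.54 in KO DMSO, 10.4 and 10.1 in KO PB and 11.1 and 11.4 in KO CITCO. Both were higher in every KO library, by log2 1.30 (SE 0.066, adjusted p = 9.12e-12) and 1.18 (SE 0.14, adjusted p = 1.13e-06) under DMSO, as was the passenger protein survivin (BIRC5, 1.05). AURKA, Aurora A itself, had the smallest difference among the mitosis members, 0.29 (SE 0.075, adjusted p = 0.00289), from 22.0 and 23.4 CPM in WT DMSO and 26.8 and 29.1 in KO DMSO.

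BUB1, a kinase of the spindle checkpoint, had 15.9 and 15.6 CPM in WT DMSO, 14.3 and 15.3 in WT PB, 20.1 and 16.8 in WT CITCO, 32.5 and 33.8 in KO DMSO, 39.7 and 37.1 in KO PB and 42.1 and 42.6 in KO CITCO. CDC20, the activator of the anaphase-promoting complex that the checkpoint holds back, had 13.8 and 13.9 CPM in WT DMSO, 12.4 and 13.5 in WT PB, 17.3 and 16.1 in WT CITCO, 28.2 and 26.2 in KO DMSO, 30.8 and 29.6 in KO PB and 33.3 and 34.6 in KO CITCO. KO libraries were above WT libraries for both, by log2 1.05 and 0.95 under DMSO (adjusted p = 2.38e-09 and 3.98e-09). TTK, the checkpoint kinase MPS1, rose by 0.87 and BUB1B, which encodes BUBR1, by 0.60. At the kinetochore CENPE, a motor that carries chromosomes to the equator, had 10.9 and 7.91 CPM in WT DMSO, 9.60 and 7.59 in WT PB, 11.1 and 11.3 in WT CITCO, 23.5 and 24.8 in KO DMSO, 30.2 and 28.7 in KO PB and 32.6 and 35.2 in KO CITCO. CENPF, a protein of the outer kinetochore, had 32.9 and 28.3 CPM in WT DMSO, 31.5 and 29.0 in WT PB, 37.9 and 37.0 in WT CITCO, 64.2 and 63.4 in KO DMSO, 73.8 and 75.0 in KO PB and 76.3 and 78.8 in KO CITCO. CENPE was 2.57-fold and CENPF 2.09-fold higher in KO DMSO (log2 1.33, adjusted p = 2.61e-08, and 1.05, adjusted p = 1.60e-10).

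Of the spindle genes, KIF11, the motor that pushes the poles apart, had 12.6 and 9.58 CPM in WT DMSO, 10.7 and 7.09 in WT PB, 13.3 and 12.8 in WT CITCO, 25.8 and 28.8 in KO DMSO, 35.1 and 34.0 in KO PB and 34.8 and 36.5 in KO CITCO. DLGAP5, which stabilises kinetochore microtubules, had 9.44 and 8.66 CPM in WT DMSO, 6.62 and 5.73 in WT PB, 8.69 and 8.48 in WT CITCO, 17.3 and 20.02 in KO DMSO, 23.0 and 24.4 in KO PB and 23.1 and 24.3 in KO CITCO. The lowest library of both was a WT PB one, and every KO library was above every WT library. Under DMSO the KO minus WT difference was log2 1.27 for KIF11 (adjusted p = 2.93e-07) and 1.00 for DLGAP5 (adjusted p = 5.88e-08). PRC1, which bundles microtubules of the midzone, was higher by 1.43, KIF20A, a cytokinesis motor, by 1.24, NUSAP1 by 0.77 and ASPM, a spindle pole protein, by 0.31, the last lost without KO DMSO 2 (adjusted p = 0.0525).

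MKI67, which coats mitotic chromosomes and is the usual marker of proliferation, had 50.01 and 46.5 CPM in WT DMSO, 44.1 and 44.6 in WT PB, 60.6 and 61.8 in WT CITCO, 146 and 139 in KO DMSO, 171 and 166 in KO PB and 173 and 176 in KO CITCO. TOP2A, which untangles sister DNA, had 68.2 and 66.0 CPM in WT DMSO, 64.6 and 56.8 in WT PB, 80.6 and 81.8 in WT CITCO, 149 and 154 in KO DMSO, 186 and 191 in KO PB and 180.2 and 194 in KO CITCO. Their KO levels under DMSO were 2.95-fold (log2 1.55, SE 0.048, adjusted p = 8.82e-15) and 2.26-fold (log2 1.17, SE 0.056, adjusted p = 3.28e-12) those of WT cells, and the MKI67 difference was the largest of the 36 members under DMSO.

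The 28 members with a promoter were also set out by motif, as a description. The 11 with a CHR and no E2F letters had KO minus WT differences under DMSO of 0.31 to 1.55 (median 1.05), all higher, among them MKI67, PRC1, KIF11 and DLGAP5 of the printed sequences. The 6 with E2F letters and no CHR had -0.0016 to 0.86 (median 0.27), with 4 higher, and include E2F1, PCNA and UHRF1. MCM6, CDK1 and NUSAP1 have both (0.27, 1.25 and 0.77). The 8 with neither had 0.21 to 1.42 (median 1.21), and 7 of these are mitosis genes such as CCNB1 and MELK.

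Under PB 35 of 36 members were higher in KO than WT cells and 1 lower, where 58.3% of all loci passed (29.4% higher, 28.9% lower). Under CITCO 32 were higher and 1 lower (59% of all loci, 29.3% higher and 29.8% lower), and MCM2, MCM3 and TYMS did not pass. With total scaling 35 were higher and 0 lower under PB (51.6% and 15.1% of all loci) and 35 higher and 1 lower under CITCO (51.2% and 15.9%), where MCM2 (adjusted p = 4.40e-05), MCM3 (7.15e-06) and TYMS (2.06e-04) passed as higher. All 25 mitosis members were higher in both, with medians of 1.29 and 1.05, while the replication medians were 0.32 and 0.21. A difference of at least 2-fold in mean CPM was reached by 18 mitosis members under DMSO, 22 under PB and 19 under CITCO. For replication members the number was 0 under any treatment. The share of all loci at this fold was not computed. KIF11 had the largest difference under PB (1.93) and CENPE under CITCO (1.55), and MCM5 was the lower gene each time (-0.24 and -0.54, or log2 -0.29, adjusted p = 9.35e-04, with total scaling). Some replication calls rested on 1 library. Under PB, TYMS was lost without WT PB 1 (adjusted p = 0.221) or KO PB 2 (0.394), PCNA without WT PB 1 (0.0628) or KO PB 1 (0.0633) and MCM3 without KO PB 1 (0.0601). Under CITCO, E2F1 (0.0742), PCNA (0.188) and RRM2 (0.0624) were lost without WT CITCO 1, MCM4 without WT CITCO 2 (0.0580), and E2F1 (0.0818), PCNA (0.153) and MCM4 (0.0642) without KO CITCO 2.

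**Figure D2:**
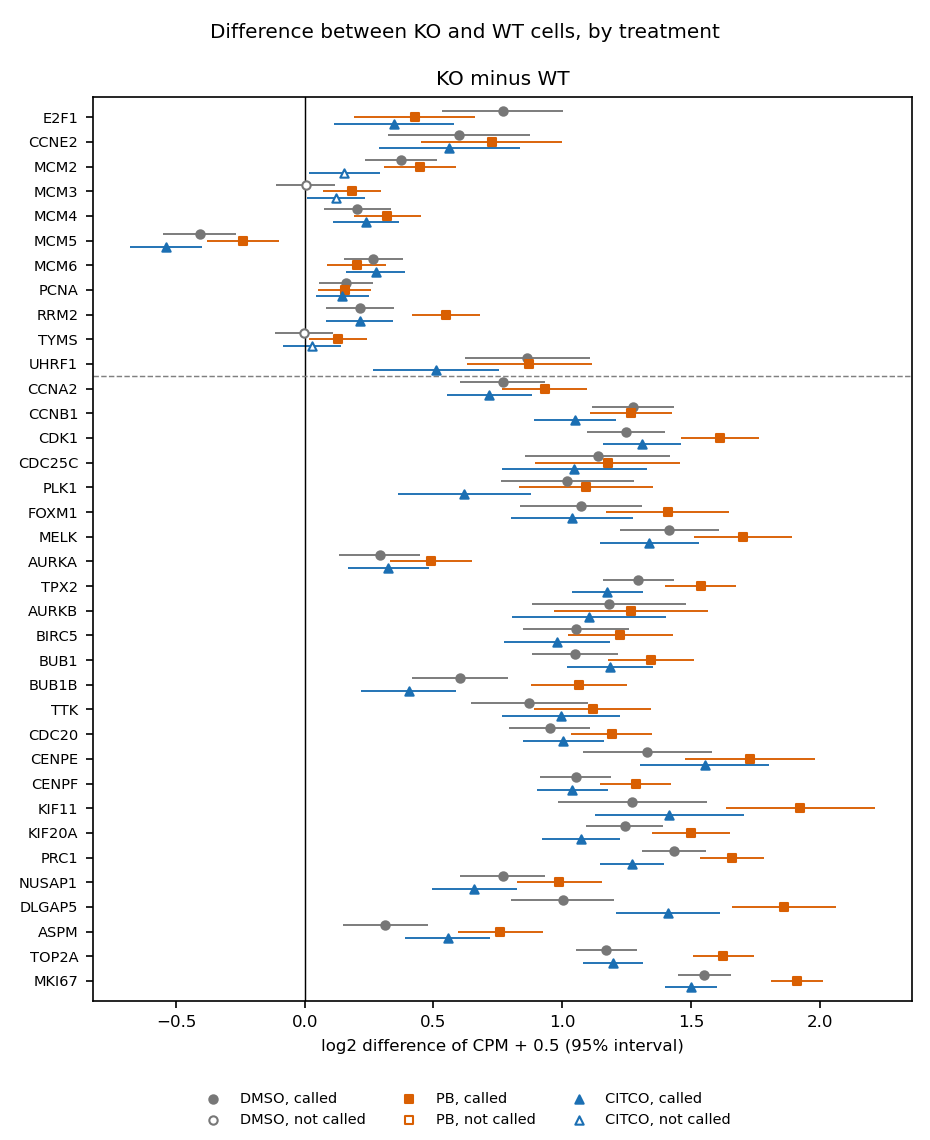
KO minus WT difference of each member on the log2(CPM + 0.5) scale (x axis) with its 95% interval, under DMSO (circles), PB (squares) and CITCO (triangles); filled symbols passed an adjusted p of 0.05, and the dashed line separates replication genes (above) from mitosis genes (below). Mitosis genes lie between 0.29 and 1.93, and MCM5 is the single member below 0 that passed.

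In WT cells CITCO raised 17 of the 36 members and lowered 0, where 2.2% of all loci passed (1.18% higher, 1.02% lower). Both lists took part: 5 of 11 replication members rose (median log2 0.27) and 12 of 25 mitosis members (median 0.30), beside a median of -0.0073 over all loci. The CITCO libraries were both above both DMSO libraries for 34 members and below for 0, against 21.5% and 24.2% of loci. DLGAP5 had the single negative difference (-0.07, adjusted p = 0.761). The replication genes that rose were E2F1 (1.59-fold, log2 0.62, SE 0.11, adjusted p = 0.00400), UHRF1 (1.56-fold, log2 0.58), MCM5 (0.37), MCM2 (0.32) and RRM2 (0.27). PCNA was at 0.17 (adjusted p = 0.0936) and TYMS at 0.20 (adjusted p = 0.0572). The mitosis genes that rose were CCNB1 (1.43-fold, log2 0.51, SE 0.075, adjusted p = 7.74e-04), CCNA2 (0.46), PRC1 (0.42), KIF20A (0.41), NUSAP1 (0.39), BUB1B (0.38), MELK (0.38), TPX2 (0.38), CDK1 (0.38), MKI67 (0.34, adjusted p = 4.61e-04), CENPF (0.29) and TOP2A (0.27).

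E2F1 had the largest of these rises, and the number called changed with the fit and with the libraries used. Fitted on just these 4 libraries, 0 members passed; 8 did with a prior variance held constant, 7 by edgeR's test, and 6 and 5 when WT CITCO 1 or 2 was dropped. CCNB1, MKI67 and PRC1 passed with any 1 of the 4 libraries left out. Hepatocyte markers were lower in 3 of 9 with CITCO in WT cells, where 1.02% of all loci were lower. Their summed level was 90.2 to 90.3% of the WT DMSO mean. Mesenchymal markers did not pass in any of 6 (98.6 to 99.9%). The part of these markers in the result was not tested.

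With PB in WT cells 0 of 36 members rose and 2 fell by limma, with 11 at an unadjusted p under 0.05, where 6.42% of all loci passed (2.66% higher, 3.76% lower). By edgeR 0 were higher and 1 was lower. The median was -0.06 for replication and -0.08 for mitosis members. Both PB libraries were below both DMSO libraries for 15 members and above for 4, against 22.5% and 18.9% of loci. DLGAP5 fell to 0.683 times its DMSO level (log2 -0.52, SE 0.096, adjusted p = 0.00201), with adjusted p = 0.115 in a fit of the 4 libraries compared. ASPM fell by 0.28 on the log2 scale (adjusted p = 0.0427), a call lost without WT DMSO 1 (0.0789), WT DMSO 2 (0.116) or WT PB 2 (0.372). E2F1 had the largest positive difference and did not pass (0.35, adjusted p = 0.0769). Left out in turn, WT DMSO 1 and 2 gave 1 and 5 calls, and WT PB 1 and 2 gave 4 and 1.

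Set directly against each other in WT cells, PB gave lower levels than CITCO for 28 of 36 members and higher for 0 (6.28% of all loci passed, 3.63% lower and 2.65% higher), 8 of 11 replication and 20 of 25 mitosis genes. The largest differences were those of UHRF1 (log2 -0.72, SE 0.12, adjusted p = 7.07e-04), BUB1B (-0.66), KIF11 (-0.56), MELK (-0.49), RRM2 (-0.47) and KIF20A (-0.47). The count was 14 when just these 4 libraries were fitted, 16 with a prior variance held constant, 17 by edgeR, and 14 and 15 without WT CITCO 1 and 2. The doses and times behind the comparison are not given.

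With CITCO in KO cells most members also had differences above 0. The replication median was 0.22 and the mitosis median 0.28, beside 0.27 and 0.30 in WT cells. Both CITCO libraries were above both DMSO libraries for 35 of 36 members, against 20.8% of loci (21.7% were below), and PLK1 was the exception (-0.10, adjusted p = 0.854). Of the members 6 passed, all higher, where 0.811% of all loci passed (0.386% higher, 0.424% lower): CDK1 (log2 0.44, SE 0.072, adjusted p = 0.00425), CCNA2 (0.40), BUB1 (0.35), TOP2A (0.30), MKI67 (0.29) and, of the replication list, TYMS (0.23). CDK1, CCNA2, TOP2A and MKI67 had also risen with CITCO in WT cells, 4 of the 17 called there (23.5%) and of the 6 called here (66.7%). Left out in turn, KO DMSO 1, KO DMSO 2, KO CITCO 1 and KO CITCO 2 left 1, 1, 2 and 0 calls, while fitting just these 4 libraries gave 17 and total scaling 11. With a constant prior variance 0 passed.

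With PB in KO cells 7 of 25 mitosis members rose and 0 fell (median 0.21), while 0 of 11 replication members passed by limma (median 0.04, 1 at an unadjusted p under 0.05), where 6.96% of all loci passed (3.87% higher, 3.09% lower). TOP2A (1.24-fold, log2 0.31, SE 0.056, adjusted p = 0.00132), CDK1 (0.35), CCNA2 (0.35), DLGAP5 (0.34), NUSAP1 (0.27), MKI67 (0.24) and PRC1 (0.21) were the ones that rose. UHRF1, at -0.13 (adjusted p = 0.627), and MCM6, at -0.06 (adjusted p = 0.650), were the replication members below 0. TOP2A passed with any 1 of the 4 libraries left out, and the count was 2 and 4 without KO DMSO 1 and 2, and 2 and 2 without KO PB 1 and 2. It was 14 when just these 4 libraries were fitted, 3 with a prior variance held constant and 4 with total scaling. Hepatocyte markers rose in 3 of 9, mesenchymal markers in 1 of 6 and biliary markers in 2 of 6 with PB in KO cells, while 1 biliary marker fell, and their part in the result was not tested. Between the drugs in KO cells, 1 member passed, MCM6, lower with PB (log2 -0.28, SE 0.055, adjusted p = 0.00388; 5.48% of loci passed, 1.91% lower and 3.57% higher), lost without KO PB 1 (0.0645) and KO CITCO 2 (0.0713).

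**Figure D3:**
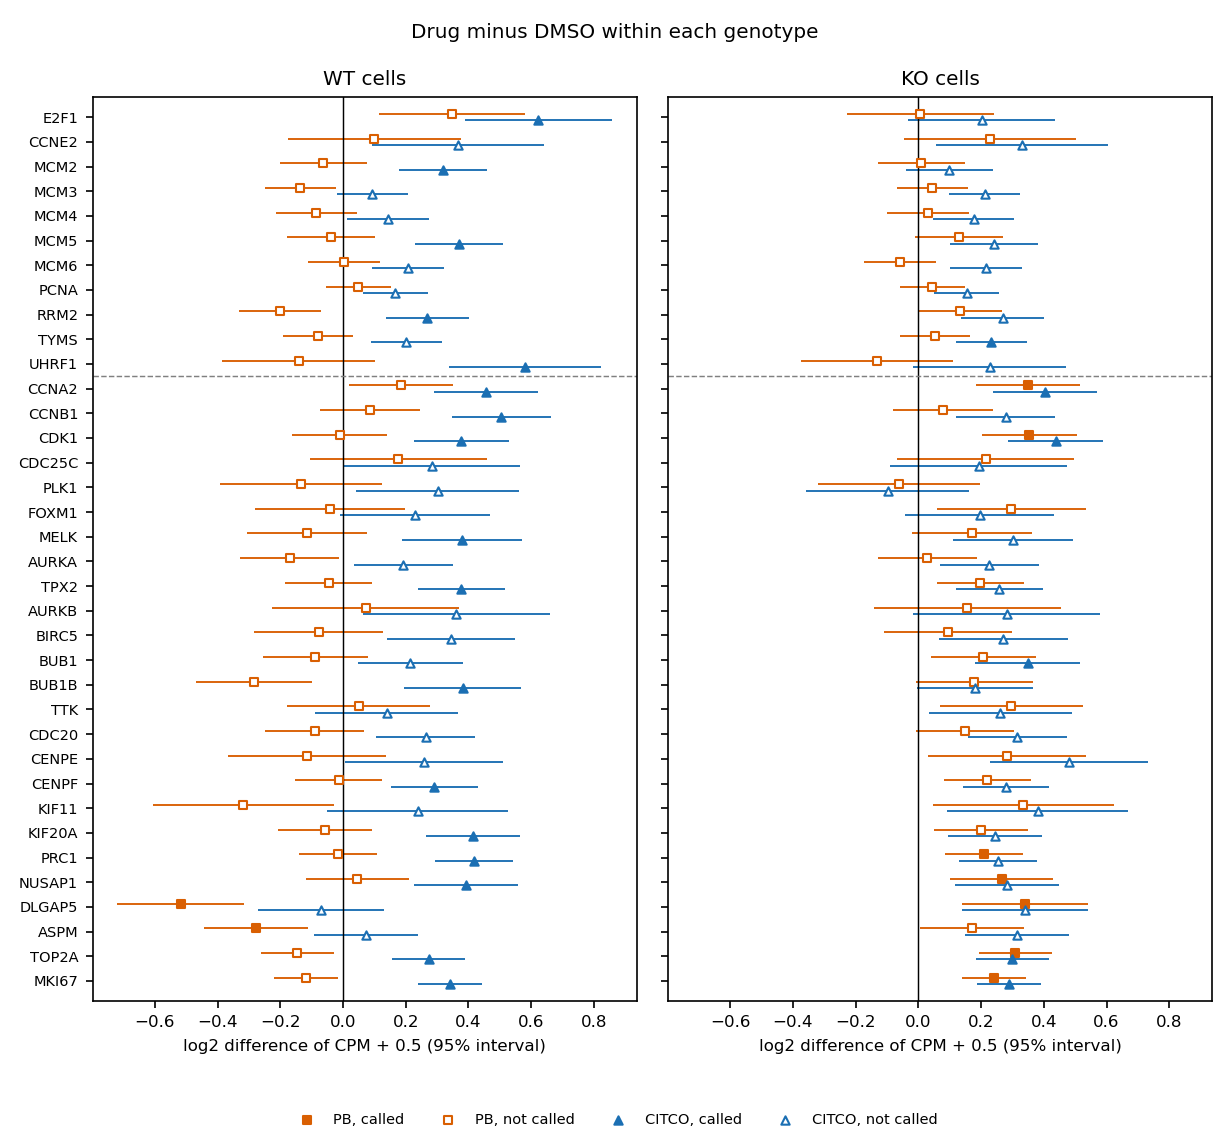
Drug minus DMSO difference of each member on the log2(CPM + 0.5) scale (x axis) with its 95% interval, in WT cells (left) and KO cells (right), for PB (squares) and CITCO (triangles); filled symbols passed an adjusted p of 0.05, and the dashed line separates replication genes (above) from mitosis genes (below). CITCO points lie to the right of 0 for 35 of 36 members in each genotype, and PB points for 10 of 36 in WT and 33 of 36 in KO cells.

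The difference between the genotypes' responses was tested for each drug. The PB response was more upward in KO cells for 3 members, DLGAP5, TOP2A and MKI67, and more downward for 0, where 1.01% of all loci passed (0.798% upward, 0.209% downward). DLGAP5 fell in WT and rose in KO cells (difference log2 0.86, SE 0.14, adjusted p = 0.00235). Its rise in KO cells (log2 0.34, adjusted p = 0.0369 by limma) was lost with total scaling and with a prior variance held constant. That rise was also lost without KO DMSO 1, KO PB 1 or KO PB 2. The differences of TOP2A (log2 0.45, SE 0.079, adjusted p = 0.00559) and MKI67 (log2 0.36, SE 0.068, adjusted p = 0.0128) joined a rise in KO cells to WT values of -0.15 and -0.12, which did not pass. When only the 8 libraries compared were fitted, the difference of MKI67 was lost. Of the 25 mitosis members 24 had a positive difference (median 0.24), and of the 11 replication members 8 had (median 0.12), beside 0.0083 over all loci. Dropping WT DMSO 2 gave 8 such members, dropping WT PB 1 5 and dropping KO PB 2 1, and 0 passed with a prior variance held constant. TOP2A was lost without KO PB 2 (adjusted p = 0.0521), and MKI67 without KO DMSO 2 (0.0830), KO PB 1 (0.118) or KO PB 2 (0.0509). The PB response of hepatocyte markers was also more upward in KO cells in 3 of 9 and that of mesenchymal markers in 1 of 6, and that of biliary markers was upward in 1 and downward in 1 of 6; their part in the result was not tested.

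For CITCO, 0 of 36 members differed in response between genotypes by limma, with 7 at an unadjusted p under 0.05 and 0.336% of all loci called. The medians of the difference were -0.01 for replication and -0.05 for mitosis members. The 95% interval was -0.20 to 0.09 for MKI67, -0.14 to 0.19 for TOP2A, -0.15 to 0.28 for CDK1 and -0.16 to 0.13 for PCNA, and was wider for E2F1 (-0.75 to -0.09), which had fewer reads, and PLK1 (-0.77 to -0.03). These intervals do not show that the responses were alike. In the same test CYP2B6 differed by -2.78 (adjusted p = 3.52e-13). Whether CITCO acted on the members through CAR was not tested.

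**Figure D4:**
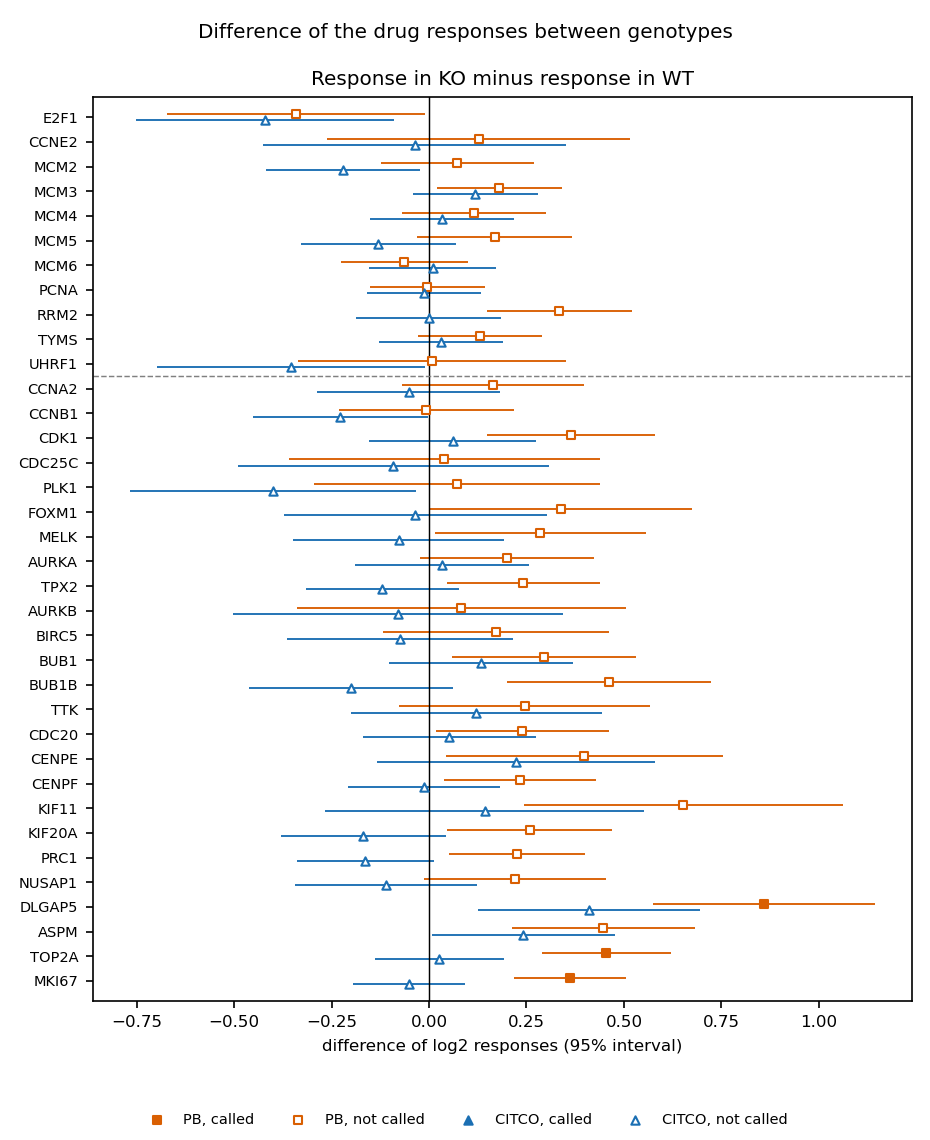
Difference between the KO and the WT response of each member (x axis, difference of log2 responses, with its 95% interval) for PB (squares) and CITCO (triangles); filled symbols passed an adjusted p of 0.05, and the dashed line separates replication genes (above) from mitosis genes (below). DLGAP5, TOP2A and MKI67 are the filled PB points, at 0.86, 0.45 and 0.36, and no CITCO point is filled.

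Cell cycle genes outside the 36 were taken from lists by function. Their counts in KO DMSO against WT DMSO stand beside 28.3% of all loci higher and 29.4% lower, or 52.5% and 14.6% with total scaling. Of 42 other mitosis genes 40 rose and 1 fell (41 and 1 with total scaling; median 0.93), led by GTSE1 (1.73), the cytokinesis scaffold ANLN (1.72) and TROAP (1.44). The condensin subunit SMC4 fell (-0.43, or log2 -0.17, adjusted p = 0.0163, with total scaling). Of 38 other replication genes 21 rose and 2 fell (32 and 1 with total scaling; median 0.29), with thymidine kinase TK1 (0.86), the clamp loader subunit RFC5 (0.83) and WDHD1 (0.78) highest, and the helicase partner GINS4 (-0.65) and the dUTPase DUT (-0.33) lower, DUT without passing under total scaling (log2 -0.07, adjusted p = 0.470). Of 9 inhibitors of the cycle 5 rose and 2 fell (6 and 1 with total scaling): CDKN2D (0.90), CDKN2C (0.76) and CDKN2B (0.76) rose most, while RB1 (-0.55) and RBL2 (-0.29) fell, RBL2 without passing under total scaling (log2 -0.03, adjusted p = 0.694). Of 7 cyclins and kinases of G1, CDK2 (0.85), CDK4 (0.59) and CCND3 (0.56) rose and 0 fell, a share of calls below that of all loci (57.7%); with total scaling 6 of 7 were higher.

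Among the other mitosis genes CITCO raised 7 of 42 in WT cells (1.18% of all loci rose), NDC80 (0.56), CCNF (0.48) and CDCA5 (0.47) most, and 4 in KO cells (0.386% of all loci), led by DEPDC1 (0.48), CEP55 (0.46) and CKAP2 (0.39). PB raised 7 in KO cells (3.87% of all loci), with CEP55 (0.45), NEK2 (0.44) and KIFC1 (0.36) highest. In WT cells PB raised 0 of the 42 and lowered 1, CDCA8 (-0.33), by limma, with 8 at an unadjusted p under 0.05 (2.66% of all loci rose and 3.76% fell). Of the 38 other replication genes 0 passed with CITCO in either genotype or with PB in KO cells by limma (14, 13 and 4 at an unadjusted p under 0.05), and RRM1 fell with PB in WT cells (-0.19). By limma 0 of the 9 inhibitors and 0 of the 7 G1 genes passed against DMSO with either drug in either genotype. At an unadjusted p under 0.05 were 1 inhibitor and 2 G1 genes with CITCO in WT cells, 3 and 1 with PB in KO cells, 0 and 2 with PB in WT cells and 0 and 2 with CITCO in KO cells.

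The authors' deposited tables hold likelihood ratio tests of the same libraries for all 36 members. At an FDR under 0.05 the authors' deposited table for CITCO in WT cells lists 20 members as higher and 0 as lower, and that for PB in WT cells 1 as higher and 2 as lower. In KO cells the authors' deposited tables list 19 as higher for CITCO and 10 for PB, with 0 lower. Their deposited table of KO against WT under DMSO lists 33 as higher and 1 as lower. The authors' deposited tables named for KO against WT under PB and under CITCO list 5 and 0 as higher and 0 as lower. For KO minus WT, the counts computed here were 35 and 32 higher. For the difference of responses, they were 3 and 0 upward and 0 downward. The log2 fold changes in those deposited tables are close to the differences of responses and not to KO minus WT. The authors' deposited table for PB gives 0.36 for MKI67 and 0.89 for DLGAP5. Computed here, the response differences were 0.36 and 0.86, and the KO minus WT differences 1.91 and 1.86.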

How the data were processed

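RNA sequencing of 12 HepaRG libraries was analysed from the authors' deposited tables. Total RNA was sequenced on libraries of the usual Illumina kind, per the labels' protocols. The submitters' processing notes list edgeR 2.12, Cuffdiff 2.1.1, Cufflinks 2.1.1, TopHat2 2.0.10 and Bowtie 1.0.0, and the builds GRCh38 and GRCh37, without saying what each was used for. Strandedness is not given in the sources used here, so reads of overlapping or antisense genes may be mixed. The deposited values are a normalized signal, called CPM in the text. In each library 100% of values were whole multiples, within 0.001 reads, of 1 read, and the WT columns met a general test of whole reads; edgeR was run on WT reads only. The authors' deposited comparison tables give log2 fold changes and p-values with FDR. Counts were taken from them, with log2 fold changes for those named for KO against WT under PB and CITCO.

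Here limma 3.58.1 was fitted in R 4.3.3 to log2(CPM + 0.5) with a variance trend, 6 group means, keeping the 15792 of 15822 loci that reached 1 CPM in 2 or more libraries; all 36 members passed this filter. Benjamini-Hochberg adjustment covered all loci tested in each of 11 comparisons. Comparisons of drugs within a genotype share their DMSO libraries. The quasi-likelihood test of edgeR 4.0.16 was an alternative. The fit was checked on simulated data. Alternatives were other pseudocounts, filters, scaling, variance models, a replicate block and left-out libraries. Duplicates differed by more than sampling noise (chi-square per degree of freedom 4.15 to 10.4). Members and lists were chosen with earlier results of these data known. Values in every library are given for the 2 members of each role with the largest called difference between genotypes or against DMSO, those whose response differed, and MKI67, CCNB1, PCNA and TOP2A; of other cell cycle genes up to 3 per direction are named. NR1I3 and CYP2B6 were planned as checks, but the level of NR1I3 checked nothing about the genotype. CYP2B6 levels are given for DMSO and CITCO only. AURKA and KRT7 were chosen after their values were seen. Of the other cell cycle lists 96 of 102 genes were tested.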

Additional observations from a re-analysis of the deposited data

Results flagged for a closer look

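The PB response differed between the genotypes at 6 cell cycle genes, by a test of the difference of responses (limma, adjusted over all loci), where 1.01% of all loci passed (0.798% upward, 0.209% downward). Among the 36 members these were DLGAP5 (0.86, 95% interval 0.57 to 1.14, adjusted p = 0.00235), TOP2A (0.45, 0.29 to 0.62, 0.00559) and MKI67 (0.36, 0.22 to 0.50, 0.0128). Among the other mitosis genes they were CEP55 (0.71, 0.40 to 1.02, 0.0240), CDCA8 (0.61, 0.33 to 0.88, 0.0280), a subunit of the chromosomal passenger complex, and CKAP2 (0.39, 0.20 to 0.59, 0.0430). CEP55, which acts in the final cut between daughter cells, had 7.70 and 5.81 CPM in WT DMSO, 5.61 and 5.39 in WT PB, 17.8 and 19.4 in KO DMSO and 25.8 and 25.2 in KO PB. CDCA8 had 10.9 and 10.7 CPM in WT DMSO, 8.31 and 8.70 in WT PB, 19.7 and 16.9 in KO DMSO and 21.7 and 22.8 in KO PB. All 6 are mitosis genes and all 6 differences are positive. Tested were 25 mitosis and 11 replication members, with 42 other mitosis and 38 other replication genes, 7 G1 genes and 9 inhibitors. These counts alone do not show that the difference is particular to mitosis genes. With a constant prior variance 0 of the 6 passed. When only the 8 libraries compared were fitted, CEP55 (adjusted p = 0.0871), CDCA8 (0.0677), CKAP2 (0.137) and MKI67 were also lost. Leaving out 1 library, CDCA8 was lost without WT DMSO 1, WT PB 1, KO DMSO 2, KO PB 1 or KO PB 2 (adjusted p up to 0.185), CEP55 without WT DMSO 1, WT PB 2 or any 1 of the 4 KO libraries (up to 0.146), and CKAP2 without any 1 library other than WT DMSO 2 (up to 0.202). CKAP2 was also lost with total scaling (0.0539).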

How the results depend on the processing

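Counts of members that passed kept within 1.5 times of the value in the report under both other pseudocounts, without a filter and with a filter of at least 1 CPM in at least 8 libraries, in all 11 comparisons. The 3 comparisons of KO with WT cells kept within that range under every alternative. With a constant prior variance the counts were 1 (2 in the report) for PB in WT cells, 8 (17) for CITCO in WT cells, 3 (7) for PB in KO cells, 0 (6) for CITCO in KO cells, 0 (3) for the difference of PB responses and 16 (28) for PB against CITCO in WT cells. A fit of only the libraries compared gave 0, 0, 14 and 17 for the first 4, 14 for PB against CITCO in WT and 7 (1) in KO cells. Total scaling gave 4 for PB and 11 for CITCO in KO cells and 4 for PB against CITCO there. With edgeR on WT reads the counts were 1 for PB, 7 for CITCO and 17 for PB against CITCO. Leaving out 1 library gave 1 to 5 for PB and 5 to 17 for CITCO in WT cells, 2 to 4 for PB and 0 to 2 for CITCO in KO cells, 1 to 8 for the difference of PB responses, 14 to 21 for PB against CITCO in WT and 0 to 1 in KO cells. Total scaling turned TYMS in KO against WT under DMSO to 0.26 and MCM5 under PB to 0.0082. The cause was not tested for any of these.

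Replicate numbers are shared by the groups. Over 15 pairs of groups the correlation of same-numbered libraries' deviations was -0.08 to 0.29 and passed 0.1 in 4 pairs, highest for WT DMSO with WT PB, so the numbers were not taken to pair the libraries. With the replicate number as a block, 2 members passed for PB against CITCO in KO cells in place of 1, the calls of BUB1 for CITCO in KO cells and of CKAP2 for the difference of PB responses were lost, and the other counts stayed within 1.5 times.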
